A study of Mus musculus with 6 samples.

Results

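Small nucleolar RNAs (snoRNAs), small Cajal body RNAs (scaRNAs) and small nuclear RNAs (snRNAs) were examined in bulk RNA-seq of the mouse aorta. A row of the deposited count table was taken when its annotated biotype was one of these 3 and its count was over 10 in all 3 control libraries or in all 3 knockout libraries. This gave 50 of 2943 annotated rows, in a table of 55487 genes. They were 27 of 1507 snoRNAs, 9 of 51 scaRNAs and 14 of 1385 snRNAs. The counts themselves chose these members. Of the 50, 42 passed in both groups, 6 in the controls alone and 2 in the knockouts alone. A member that passed through 1 group only had a count not over 10 in at least 1 library of the other, so the rule could favour a difference there.

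The study deleted Prdm16, a transcription factor gene, in smooth muscle cells of male mice on a C57BL/6 background. The 3 inducible smooth muscle knockouts (iSM KO) were Prdm16 F/F, carrying a floxed gene, and the 3 controls were Prdm16 W/W littermates. Both groups carried Myh11-CreERT2, a transgene on the Y chromosome that drives a tamoxifen-dependent recombinase in smooth muscle, and both received tamoxifen from 8 weeks of age at 1 mg per mouse per day in 10 injections. The aorta was taken once a 2-week pause and another 60 days had passed, the adventitia was removed, and total RNA was sequenced after depletion of ribosomal RNA. The libraries came from 3 knockout and 3 control mice.

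SnoRNAs guide the chemical modification of ribosomal RNA in the nucleolus. Those with C and D boxes direct methylation of the ribose, those with an H box and an ACA box direct the change of uridine to pseudouridine, and a few, among them U3 and the Snora73 RNAs, act in cutting the ribosomal precursor. ScaRNAs do the same work on snRNAs in Cajal bodies. The snRNAs build the spliceosome with Sm proteins, where U1 pairs with the start of an intron, U2 pairs with its branch point, and U12 does this in the minor spliceosome. Most mammalian snoRNAs and scaRNAs are cut out of the introns of host genes, whereas snRNAs and U3 have promoters of their own.

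The sequences of 9 members follow, written as DNA on the strand of the RNA, from GENCODE release M21 on GRCm38 (mm10). The first set shows the snRNAs on which the comparison of the groups turned. Capitals mark ATTTNTG, the letters of the Sm protein site, with TTACCTG near the start of U1 and GTAGTA near the start of U2. Gm22513 matched Rnu1a1 and Gm23971 matched Rnu2-10, while Gm24265 matched no snRNA with a name of its own among the rows searched. No row was named Rnu4, so a match to that snRNA could not be found.
Gm22513: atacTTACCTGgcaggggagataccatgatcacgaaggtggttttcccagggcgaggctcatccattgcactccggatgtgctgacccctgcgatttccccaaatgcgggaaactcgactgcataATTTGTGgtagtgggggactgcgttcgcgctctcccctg
Gm23971: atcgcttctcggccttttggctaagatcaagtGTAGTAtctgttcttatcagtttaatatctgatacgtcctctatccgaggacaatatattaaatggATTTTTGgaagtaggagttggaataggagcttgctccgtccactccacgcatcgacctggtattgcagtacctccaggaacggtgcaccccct
Gm24265: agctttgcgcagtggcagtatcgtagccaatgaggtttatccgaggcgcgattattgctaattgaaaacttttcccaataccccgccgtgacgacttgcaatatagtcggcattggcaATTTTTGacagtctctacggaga
Rnu12: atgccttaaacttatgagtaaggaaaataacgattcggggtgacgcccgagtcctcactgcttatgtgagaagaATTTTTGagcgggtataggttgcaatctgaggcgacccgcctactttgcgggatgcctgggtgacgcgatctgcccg

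The second set shows snoRNAs. Capitals mark TGATGA and CTGA, the letters of the C and D boxes, or ACA close to the end. Rnu3b1 stands for the 4 members Rnu3b1 to Rnu3b4, whose sequences are the same. Gm22486 is annotated as Snord94 by RefSeq at the same position, and Gm23262 held none of these letters in the windows searched.
Rnu3b1: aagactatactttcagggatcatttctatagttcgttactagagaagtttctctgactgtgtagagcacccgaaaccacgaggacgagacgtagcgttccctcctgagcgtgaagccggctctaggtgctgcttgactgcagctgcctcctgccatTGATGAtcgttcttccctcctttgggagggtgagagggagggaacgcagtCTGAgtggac
Snord17: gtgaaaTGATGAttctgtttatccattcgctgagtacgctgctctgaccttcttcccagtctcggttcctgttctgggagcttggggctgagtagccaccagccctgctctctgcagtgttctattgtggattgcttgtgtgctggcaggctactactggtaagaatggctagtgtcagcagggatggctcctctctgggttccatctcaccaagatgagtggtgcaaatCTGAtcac
Gm22486: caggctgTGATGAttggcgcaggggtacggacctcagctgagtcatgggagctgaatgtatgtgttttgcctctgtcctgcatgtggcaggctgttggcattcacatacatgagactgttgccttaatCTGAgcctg
Snora73b: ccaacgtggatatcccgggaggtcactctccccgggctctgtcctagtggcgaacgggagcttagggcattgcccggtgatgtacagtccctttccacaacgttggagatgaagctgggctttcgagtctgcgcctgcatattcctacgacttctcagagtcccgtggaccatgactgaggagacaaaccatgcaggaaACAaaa
Gm23262: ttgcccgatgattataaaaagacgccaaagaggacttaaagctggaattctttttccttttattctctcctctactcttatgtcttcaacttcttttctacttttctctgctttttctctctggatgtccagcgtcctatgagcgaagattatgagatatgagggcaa

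The motifs were searched on the strand of the RNA only. ATTTNTG stood in all 14 snRNA members and in 20.5% of the 1383 annotated snRNA rows for which a sequence was found. Of the 14, 4 held TTACCTG in the first 15 bases and 7 held GTAGTA in the first 50, against 5.35% and 2.82% of those rows. TGATGA in the first 20 bases together with CTGA in the last 15 stood in 6 of 27 snoRNA members, against 20.2% of annotated snoRNA rows, and ACA in the last 6 bases stood in 14 of 27, against 45.8%. CTGA and ACA can share a letter where both stand close to the end of an RNA.

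The 6 libraries held 24911609 to 40460467 counts each. Prdm16 measured 195 ± 24.5 CPM (counts scaled to the size of each library, SD, n = 3) in the controls and 95.4 ± 16.5 CPM in the iSM KO, a log2 fold change of -1.03 with an FDR of 0.00265 by edgeR. The 6 smooth muscle markers summed to 22200 to 27200 CPM in every library, and none of the 6 passed an FDR of 0.05 with edgeR. The 4 adipocyte markers (Adipoq, Plin1, Cidec and Ucp1), of which 3 passed as lower in the iSM KO, summed to 4.78, 53.1 and 51.4 CPM in controls 1, 2 and 3 and to 4.71, 2.18 and 4.57 CPM in iSM KO 1, 2 and 3. Endothelial markers summed to 404 to 851 CPM in the controls and to 216 to 652 CPM in the iSM KO, and fibroblast markers to 147 to 315 and 122 to 179 CPM, with none of these 9 past an FDR of 0.05 with edgeR. Macrophage markers summed to at most 22.9 CPM, Schwann cell, cardiomyocyte and skeletal muscle markers to at most 8.35 CPM and T and B cell markers to at most 1.01 CPM in any library. In bulk tissue, fewer cells of a type and less RNA per cell cannot be told apart.

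Detection followed length. The members were 126 to 414 bases long, with a median of 191, against a median of 108 over all annotated rows, and 1793 annotated rows were shorter than the shortest member. Members made up 17 of 2006 rows of 100 to under 150 bases (0.847%), 16 of 242 rows of 150 to under 200 bases (6.61%) and 17 of 40 rows of 200 bases or more (42.5%). Over the 50 members, length and the logarithm of the mean CPM had a Pearson r of 0.653 and a Spearman rho of 0.628, points that come from the same 6 libraries. The members therefore stand for the long RNAs of these classes, and 2624 of the 2943 annotated rows were at 0 in every library.

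The snoRNAs found by symbol in the clusters of Rpl13a, Gas5, Rian and Snhg14 were at or near 0, although their hosts were not. These are clusters of short C/D box snoRNAs, and rows of theirs under other names were not looked up. The 5 snoRNAs listed for the introns of Rpl13a, a ribosomal protein gene, reached at most 2 counts in any library, while Rpl13a itself measured 301 to 358 CPM. Of 10 snoRNAs listed for Gas5, the 3 found by symbol were at 0 in all 6 libraries, while the noncoding host Gas5 measured 26.7 to 39.96 CPM. The 3 found of 8 listed for Rian and the 4 found of 6 listed for Snhg14, both imprinted host transcripts, were likewise at 0. Of the 8 on the Snhg1 list, Snord22 was the one entry found. It is a member, with 10.85 to 68.88 estimated counts.

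Just inside the limit, Snora5c passed through the iSM KO alone, with 10.1, 10.5 and 10.5 estimated counts, against 5.5, 10.8 and 6.23 in the controls. Gm26397 passed through the controls with a lowest count of 11. Just outside, Gm23442 had 8, 8 and 7 counts in the controls and 6, 1 and 2 in the iSM KO, and Gm25776 had 12, 8 and 6 against 1, 6 and 4. Snora5c rounded to a count of 10 in the iSM KO and was not tested, which left 49 members in the fit.

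Many members are copies of one another. Among the 50, 25 had a near-identical copy elsewhere in the annotation, and 30 had counts that were not whole numbers in all 6 libraries, 22 of them among those 25. How reads matching several rows were assigned is not given in the sources used here, so the values of single copies are uncertain. The 4 U1 members belong to a family of 28 annotated rows and hold 89.5% of its counts, and the 7 U2 members belong to a family of 13 rows and hold 98.3%. The 4 members Rnu3b1 to Rnu3b4 hold 99.7% of the counts of their family of 13 rows.

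Levels of different RNAs were compared per kilobase of RNA length. The scaRNAs and H/ACA snoRNAs had the highest median levels, 109 and 132 CPM per kb over the 6 libraries, followed by the snRNAs at 48.8, the C/D snoRNAs at 24.6 and the 11 snoRNAs without a class in their name at 6.29 CPM per kb. Within every class the members ranged widely, for example from 6.41 to 481 CPM per kb in the 10 scaRNAs and from 4.24 to 500.4 in the 14 snRNAs. These ranges overlapped between the classes. Here Scarna10, annotated as a snoRNA, is counted with the scaRNAs because of its name.

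A few RNAs held most of the counts. Scarna2, which guides modification of U2 and lies at chr3:108554338-108554751, held 16.7% of all counts of the 50 members, and the 10 leading members held 72.4%. In the scaRNA biotype, Scarna2 and Gm22009 together held 69.6%. In the snRNA biotype, the U2 copy Gm23971 held 30.1%, and in the snoRNA biotype, Scarna10 and Snora73b together held 38.9%. Per kilobase, Gm23971 (500.4 CPM per kb), Scarna2 (481) and the snRNA Gm24265 (404) were the highest of the 50, and the 3 did not differ beyond the spread of Gm24265 between libraries.

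**Figure D1:**
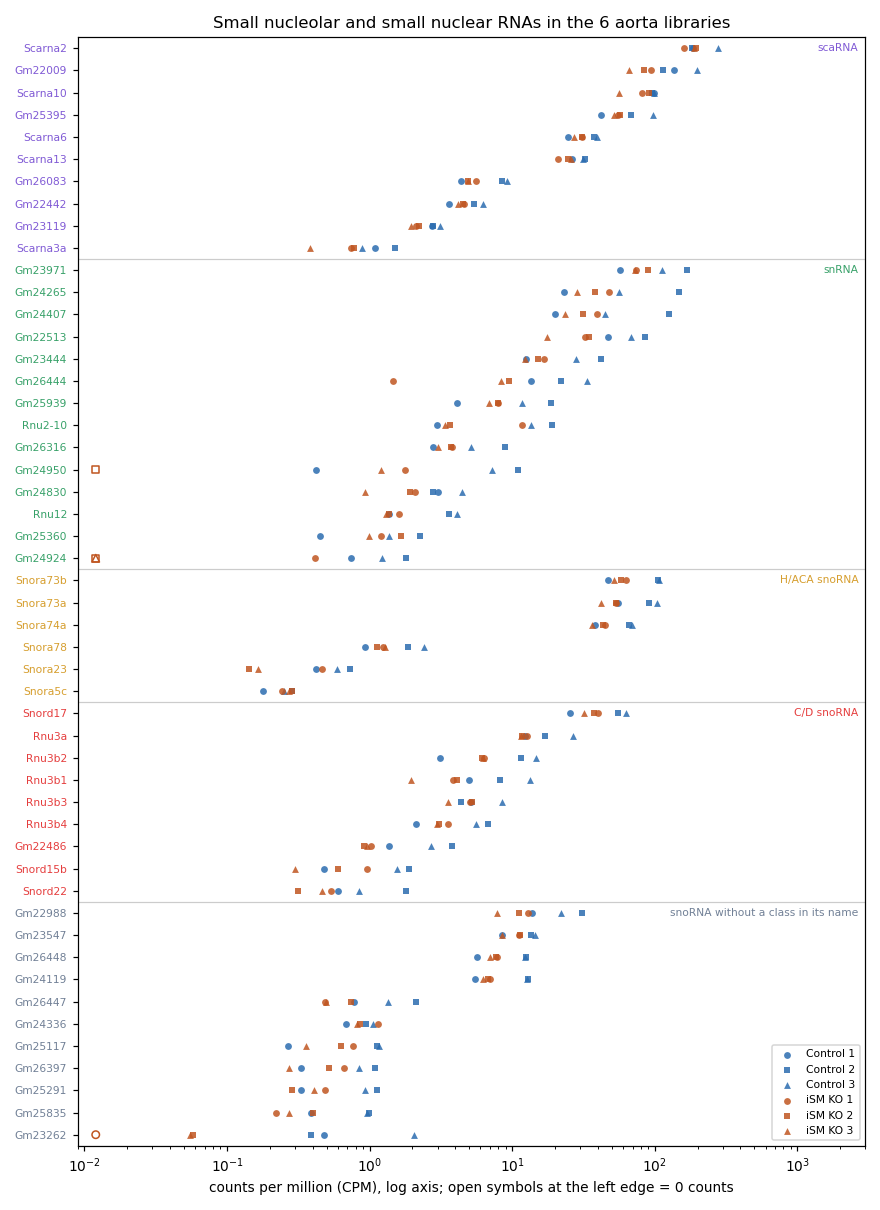
Level of each of the 50 members in the 6 libraries, in CPM on a log axis, grouped by class and ordered by mean level, with open symbols at the left edge for 0 counts. Blue squares and triangles (controls 2 and 3) lie to the right in most rows, while blue circles (control 1) lie among the orange iSM KO symbols, below the iSM KO mean in 29 of the 50.

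The 3 controls differed from one another. Of the 50 members, 25 were highest in control 2 and 22 in control 3, and control 1 was the lowest of all 6 libraries in 22. Both control 2 and control 3 lay above every iSM KO library in 45 of the 50 members, while control 1 lay below the mean of the iSM KO in 29. Controls 2 and 3 lay above every iSM KO library for 13 of 14 snRNAs, 9 of 10 scaRNAs, 8 of 9 C/D snoRNAs, 5 of 6 H/ACA snoRNAs and 10 of 11 snoRNAs without a class in their name. The position of control 1 varied by class, below the iSM KO mean for 10 of 14 snRNAs, 4 of 6 H/ACA snoRNAs and 7 of 11 snoRNAs without a class in their name, but for 4 of 9 C/D snoRNAs and 4 of 10 scaRNAs. The same counts of libraries over all genes are not given here, so this pattern is not shown to be particular to these RNAs. Controls 2 and 3 were also the libraries in which the adipocyte markers were high, at sums of 53.1 and 51.4 CPM against at most 4.78 CPM elsewhere. Ucp1 made up 4.22 CPM of the sum in control 2 and 33.0 CPM in control 3. Adipoq, Plin1 and Cidec measured 11.1, 19.8 and 17.9 CPM in control 2, 4.61, 7.88 and 5.83 CPM in control 3 and at most 2.09 CPM elsewhere. The part of these differences in the results was not tested.

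**Figure D2:**
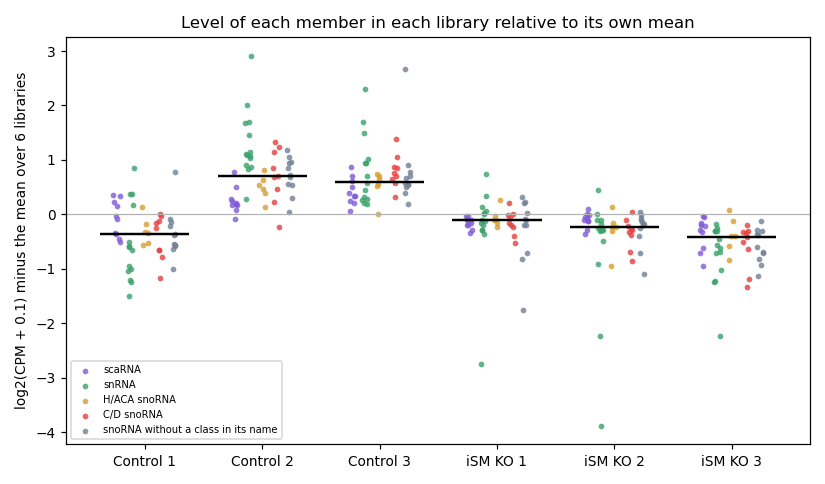
For each library, the log2(CPM + 0.1) of each of the 50 members minus that member's mean over the 6 libraries, coloured by class, with a black line at the median. The medians are 0.71 in control 2 and 0.60 in control 3, against -0.36 in control 1 and -0.11 to -0.41 in the iSM KO.

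The spread among the controls was therefore wide. The SD of log2 CPM among the 3 controls had a median of 0.689 over the 49 members tested, against 0.251 among the 3 iSM KO libraries, and it was larger in the controls for 41 of 49. Over all 16565 genes tested these medians were 0.186 and 0.131, with the SD larger in the controls for 10788. By class, the median SD in the controls and in the iSM KO was 0.867 and 0.372 for the snRNAs, 0.722 and 0.173 for the C/D snoRNAs, 0.476 and 0.162 for the H/ACA snoRNAs and 0.372 and 0.129 for the scaRNAs. For the snoRNAs without a class in their name it was 0.701 and 0.342. The scaRNAs, with a median of 268 bases, thus varied least. Spread did not simply follow length, as the C/D snoRNAs (median 216 bases) varied more than the H/ACA snoRNAs (190 bases).

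The excess in control 2 was larger for short members. The log2 ratio of control 2 to the mean of controls 1 and 3 (with 0.1 CPM added) had a median of 0.749 for the 17 members under 150 bases, 0.69 for the 16 members of 150 to under 200 bases and 0.202 for the 17 longer ones. Over the 50 members its Spearman rho with length was -0.403, and over the 25 without a near-identical copy it was -0.61. The log2 fold change (iSM KO minus control) of the members also went with length. Its medians were -0.985, -0.981 and -0.437 in these 3 length ranges. Its Spearman rho with length was 0.448 over the 49 members tested (Pearson r 0.288) and 0.584 over those 25 (Pearson r 0.302). Classes of unlike length were therefore compared without a correction for it. Other small RNAs were measured in the same libraries. Vaultrc5, a vault RNA, had 57 counts in control 2 and 13 to 19 in every other library, while Rn7sk, which holds back transcription elongation, was at 34240 CPM in control 2 and at 30200 to 45200 CPM in the others.

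Summed by biotype, the members made up a smaller share of the iSM KO libraries on average. The ratio of iSM KO to control was lowest for the snRNAs, which rested on control 2. The snRNA members held 0.0188, 0.0675 and 0.0375% of the counts in controls 1, 2 and 3 and 0.0244, 0.0233 and 0.0188% in iSM KO 1, 2 and 3, means of 0.0413 ± 0.0246 and 0.0222 ± 0.00296% (SD, n = 3). Control 2 alone held more than all others, control 1 was level with the lowest iSM KO library, and the groups overlapped. Without control 2 the ratio of iSM KO to control rose from 0.537 to 0.788, above the 0.747 of the snoRNAs and the 0.731 of the scaRNAs.

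The snoRNA members held 0.0333, 0.0564 and 0.0565% in the controls and 0.0365, 0.0349 and 0.0291% in the iSM KO, and control 1 lay inside the iSM KO range. The scaRNA members held 0.0424, 0.0465 and 0.0635% in the controls and 0.0379, 0.0395 and 0.0388% in the iSM KO. This was the one biotype whose groups did not overlap, with a ratio of iSM KO to control of 0.762 that became 0.871 without control 3. With 3 libraries against 3, the smallest p an exact two-sided permutation test can give is 0.1, so no share could pass 0.05.

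**Figure D3:**
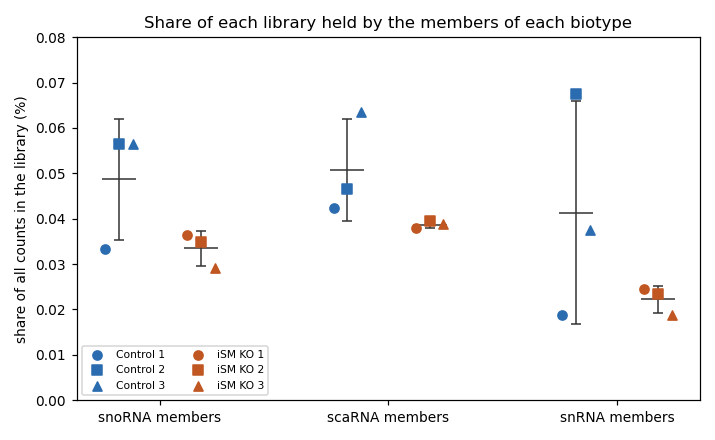
Share of all counts in a library (%) held by the members of each biotype, 1 symbol per library, with a horizontal line at the mean of each group and whiskers for its SD. The scaRNA shares of the 3 controls lie above those of the 3 iSM KO libraries, whereas control 1 lies within or at the edge of the iSM KO range for snoRNAs and snRNAs.

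In the test of each member, the log2 fold change (iSM KO minus control) was below 0 for 48 of 49, or 98.0%, against 52.4% of the 16565 genes tested. The median over the 49 was -0.646, against -0.0144 over all genes, and the values ran from -4.56 to 0.097. An unadjusted p under 0.05 was found for 23 of 49 (46.9%) on the lower side, against 11% of all genes. Few passed after adjustment. With an FDR under 0.05 and a fold change over 2, edgeR called 3 of 49 lower (6.12%), against 1.38% of all genes, and 0 higher, against 1.40%, so that 2.78% of all genes were called in either direction. Of the members, 0 were higher at an unadjusted p under 0.05 and 0 were called higher by DESeq2 or limma-voom. At any fold it called 4 of 49 lower (8.16%) and 0 higher, against 3.30 and 4.26% of all genes, or 7.56% in either direction. The groups did not overlap, with every iSM KO library below every control, for 16 of 49 (32.7%), against 13.0% of all genes, and the reverse held for 0, against 15%. DESeq2 called 7 members lower, against 1.62% of all genes, and 10 at any fold, against 4.64%. With no filter on low counts edgeR called 11 of 50, against 1.14%, and 17 at any fold, against 2.81%.

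These counts rest on members that share reads and libraries. With the near-identical copies summed to 1 row for each family, which was chosen after seeing the data, 33 of 34 rows had a fold change below 0 and 3 were called. In that fit, 465 of all 16551 rows tested were called in either direction. Among the 42 members that passed the count limit in both groups, 41 were below 0 and 2 were called. Of these 42, 18 (42.9%) were lower at an unadjusted p under 0.05 with edgeR. The groups did not overlap for 14 (33.3%). Of the 6 members that passed through the controls alone, where the rule could favour a difference, these numbers were 5 and 2. The calls changed with single libraries. Without control 1, edgeR called 11 of 49 lower, against 1.24% of all genes, and 22 at any fold, against 2.51%. Without control 2 it called 2, against 1.31%, and 2 at any fold, against 3.83%. It called 1 without control 3 (1.05% of all genes, 2.23% at any fold), 1 without iSM KO 1 (0.794 and 1.44%) and 1 without iSM KO 3 (1.88 and 3.21%), with the same numbers at any fold. It called 0 without iSM KO 2 (0.758 and 1.20%), where 16 had an unadjusted p under 0.05.

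**Figure D4:**
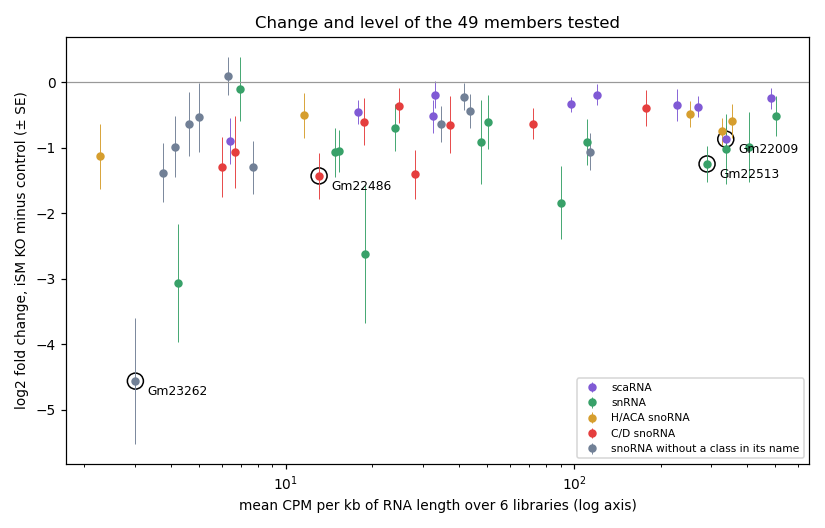
Log2 fold change (iSM KO minus control, with its standard error) against the mean level in CPM per kb (log axis) for the 49 members tested, coloured by class, with circles around the 4 with an FDR under 0.05. All points but 1 lie below 0, and the most negative ones, Gm23262 at -4.56 and Gm24924 at -3.06, are among the lowest in level.

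The snRNAs fell into families, of which U1 passed the test. Gm22513, a U1 copy at chr12:54696782-54696945 with whole counts and no host gene, measured 46.9, 85.4 and 68.1 CPM in controls 1, 2 and 3 and 32.5, 34.5 and 17.6 CPM in iSM KO 1, 2 and 3. All 3 controls lay above all 3 iSM KO libraries. Its log2 fold change was -1.25 ± 0.27 (SE) with an FDR of 0.0254 by edgeR. Leaving out 1 library at a time kept the FDR under 0.05 in 2 of 6 fits, those without control 1 and without iSM KO 3, and gave 0.0598 without control 2, 0.079 without control 3, 0.0533 without iSM KO 1 and 0.0507 without iSM KO 2.

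The other U1 copies were lower as well but did not pass. Gm26444 measured 13.5, 22.1 and 33.5 CPM in the controls and 1.45, 9.57 and 8.38 CPM in the iSM KO, with a log2 fold change of -1.83 ± 0.55 and an FDR of 0.0863. Gm24830, with a log2 fold change of -1.05 and an FDR of 0.0913, and Gm24924, at 0 counts in iSM KO 2 and 3 and listed through the controls alone, had groups that did not overlap either. Summed over its 28 rows, U1 measured 65.6, 125 and 117 CPM in the controls and 47.3, 53.6 and 28.4 CPM in the iSM KO. The groups did not overlap, and the log2 fold change was -1.25 ± 0.27 with an FDR of 0.0258.

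U2 did not pass. Gm23971, its leading copy at chr11:101645740-101645930, measured 56.9, 168 and 112 CPM in the controls and 73.5, 90.2 and 72.6 CPM in the iSM KO. Control 1 was the lowest of the 6 libraries, and the FDR was 0.369. The family sum was 81.3, 281 and 180 CPM in the controls and 119, 123 and 101 CPM in the iSM KO, with a log2 fold change of -0.66 ± 0.35 and an FDR of 0.2998. Single copies ranged from -2.62 (Gm24950, listed through the controls alone) to -0.10 (Gm25360) although their sequences are near-identical. Gm24950, Gm23971 and Rnu2-10 have the same sequence, so their values of -2.62, -0.51 and -0.91 are not those of separate RNAs. Gm24950 and Rnu2-10 had the largest SDs of log2 CPM among the controls, 2.46 and 1.42.

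The pair Gm24265 and Gm24407, neighbours on chromosome 5, varied most among abundant members. Gm24265 had 773, 5688 and 1339 estimated counts in the controls, or 23.1, 148 and 56.1 CPM, and 48.2, 37.9 and 28.6 CPM in the iSM KO. Control 2 alone was far above the rest, control 1 was the lowest of all, and the SD of log2 CPM was 1.34 in the controls. Their sum had a log2 fold change of -1.0 ± 0.53 with an FDR of 0.307. Rnu12, the U12 RNA, measured 1.37, 3.62 and 4.11 CPM in the controls and 1.62, 1.38 and 1.31 CPM in the iSM KO, with an FDR of 0.134. The FDR of Rnu12 became 0.0109 without control 1 and 0.23 to 0.319 without any other 1 library.

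Rows that carry the name of an snRNA were mostly near 0, while other rows of the same sequence held counts. Rnu1a1, Rnu1b1, Rnu1b2 and Rnu6 had at most 1.61 estimated counts in any library, and Rnu1b6 had 24.3 in control 3 alone. Gm26444 is identical to Rnu1a1 and Gm24830 to Rnu1b6, so these low values do not give the level of U1. Rnu5g, Rnu11 and Rnu7, of which Rnu7 acts on the ends of histone messages and not in splicing, were at 0 in all 6 libraries.

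All 10 scaRNAs had fold changes below 0, of -0.19 to -0.89 on the log2 scale, with a median of -0.356. Gm22009, a scaRNA of 343 bases with letters of C and D boxes in an intron of Kpna4 (chr3:69085105-69085447), was the one that passed at any fold. It had 4554, 4379 and 4706 counts in the controls and 3843, 2943 and 2421 in the iSM KO, or 136, 114 and 197 CPM against 94.3, 84.3 and 66.3 CPM. Every iSM KO library was below every control, with a log2 fold change of -0.87 ± 0.20 and an FDR of 0.0323. The FDR stayed under 0.05 in 1 of the 6 fits that left out a library, 0.0158 without control 2, and was 0.0516 to 0.108 in the others, which left out control 1, control 3 or 1 of the iSM KO libraries. Kpna4, an importin gene, had a log2 fold change of -0.0019 with an FDR of 0.994.

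Scarna2 measured 186, 184 and 278 CPM in the controls and 161, 196 and 190 CPM in the iSM KO. Its groups overlapped, control 3 was the highest, and the FDR was 0.416. Scarna10, which guides modification of U5, measured 99.8, 96.1 and 99.3 CPM in the controls and 81.2, 91.5 and 55.9 CPM in the iSM KO. It had the closest controls of the leading members, an SD of 2.02 CPM, and although the groups did not overlap the FDR was 0.204. Scarna13 (FDR 0.128), Gm23119 (0.193) and Scarna3a (0.182) also had groups that did not overlap, whereas Gm25395, Scarna6, Gm26083 and Gm22442 overlapped.

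All 9 C/D snoRNAs had fold changes below 0, with a median of -0.646 on the log2 scale, and 1 of 9 passed an FDR of 0.05. Gm22486 (Snord94) at chr6:71882557-71882693, partly within an exon of a retained-intron transcript of Ptcd3, measured 1.37, 3.77 and 2.68 CPM in the controls and 1.03, 0.917 and 0.958 CPM in the iSM KO. The 3 iSM KO libraries were close together and below the controls, with control 1 the nearest to them. Its log2 fold change was -1.43 ± 0.36 with an FDR of 0.0442. Without control 1 the FDR was 0.00998, and in the 5 fits without another library it was 0.0956 to 0.156. The call was also lost with limma-voom (0.0912), without TMM scaling (0.0509) and with a filter on the mean count (0.0509). Ptcd3 had a log2 fold change of -0.06 with an FDR of 0.738.

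The U3 RNAs, which act in the first cuts of the ribosomal precursor, did not pass. Rnu3a measured 12.3, 17.1 and 26.8 CPM in the controls and 12.8, 11.7 and 11.6 CPM in the iSM KO, with an FDR of 0.159. The 4 identical Rnu3b copies had log2 fold changes from -1.40 (Rnu3b1, FDR 0.0552) to -0.35 (Rnu3b3). Their family sum was 15.4, 30.9 and 42.4 CPM in the controls and 19, 18.7 and 14.7 CPM in the iSM KO. Control 1 lay within the iSM KO range, and the log2 fold change was -0.76 ± 0.30 with an FDR of 0.179. Snord17, the highest C/D snoRNA, measured 25.6, 55.6 and 63.0 CPM against 40.3, 37.3 and 31.9 CPM, so that control 1 was the lowest of the 6 and the FDR was 0.438. Snord22, the U22 RNA, which acts on the ribosomal precursor and lies in Snhg1, had groups that did not overlap and an FDR of 0.134, and Snord15b in Rps3 had an FDR of 0.293. Of 16 listed RNAs that act on the ribosomal precursor, 8 were tested and 0 passed with edgeR, with a median log2 fold change of -0.638. Of these 8, 4 had an unadjusted p under 0.05, against 22.1% of all genes in either direction. With DESeq2 3 passed, against 4.64% of all genes called lower at any fold, and with limma-voom 0 passed. The 8 include the 4 identical Rnu3b copies and the near-identical pair Snora73a and Snora73b, so they are not 8 separate RNAs.

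Among the H/ACA snoRNAs, Snora73a and Snora73b led. Snora73a measured 55.8, 91.9 and 104 CPM in the controls and 53.7, 53.8 and 42.2 CPM in the iSM KO, and Snora73b measured 47.4, 106 and 108 CPM against 63.5, 58.3 and 52.1 CPM. Control 1 lay just above the iSM KO libraries in Snora73a and below them all in Snora73b. Their sum had a log2 fold change of -0.66 ± 0.23 with an FDR of 0.130, and Snora73a alone had an FDR of 0.0618. Both lie in Snhg3, and Snora73b also lies across an exon of the antisense transcript Gm17300. Snora74a (log2 fold change -0.48, FDR 0.2), Snora78 (-0.50, FDR 0.434) and Snora23 (-1.13, FDR 0.219, listed through the controls alone) overlapped between the groups.

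The 11 snoRNAs without a class in their name held the most negative value and the one positive value. Gm23262 at chr7:111076060-111076227, which partly overlaps an exon of a processed transcript of Eif4g2, had 16.09, 14.83 and 49.03 estimated counts in the controls and 0, 2.08 and 1.69 in the iSM KO. All controls were above all iSM KO libraries, and control 3 was the highest. Its log2 fold change of -4.56 ± 0.97 (FDR 0.0235) rests on 3.77 counts in the whole iSM KO group. It passed the count limit through the controls alone, so that the rule itself favoured a difference. The FDR was 0.0169 to 0.0355 without any 1 of the controls and 0.0512 to 0.081 without any 1 of the iSM KO libraries.

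Gm22988, in Eif4a1, measured 13.9, 30.8 and 21.9 CPM in the controls and 13, 11.2 and 7.78 CPM in the iSM KO. The groups did not overlap, by a small margin at control 1, and the FDR was 0.0536. Gm26447, in Eif4a2, had groups that did not overlap either, with an FDR of 0.0948. Gm24336, in an intron of Cwf19l1, was the member with a fold change above 0, at 0.687, 0.937 and 1.05 CPM in the controls and 1.15, 0.860 and 0.821 CPM in the iSM KO. Its groups overlapped, with a log2 fold change of 0.10 ± 0.30 and an FDR of 0.881, and without iSM KO 1 the value was -0.08.

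The host genes had fold changes close to 0. Of the 50 members, 35 lay within a gene on the same strand, 23 in an intron and 12 overlapping an exon, where reads of host and member may not be told apart. For 28 members the host was tested. The member's log2 fold change was below that of its host for 28 of 28, with medians of -0.633 for the members and -0.022 for the hosts. None of the 25 hosts passed an FDR of 0.05 with edgeR, against 7.56% of all genes. Of these hosts, 2 had an unadjusted p under 0.05, against 22.1% of all genes, and 1 passed with DESeq2 and 0 with limma-voom. Across these 28 members the 2 fold changes had a Pearson r of 0.0599 and a Spearman rho of 0.108, as a description over points from the same 6 libraries.

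**Figure D5:**
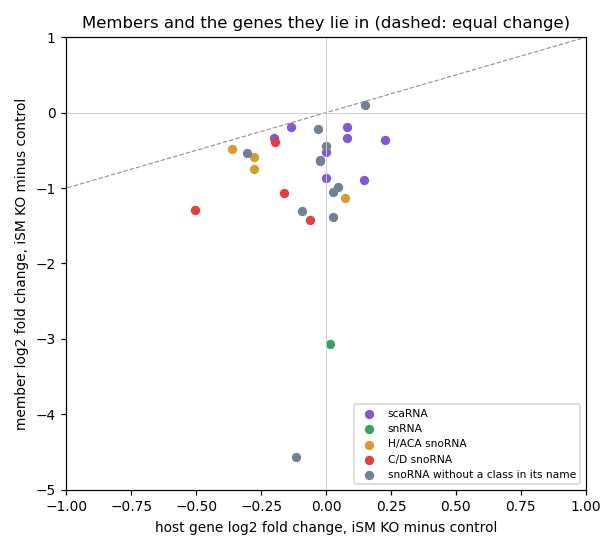
Log2 fold change of 28 members (vertical axis) against that of the gene each lies in (horizontal axis), coloured by class, with a dashed line where both are equal. Hosts lie between -0.50 and 0.23, and every member lies below the line.

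Among the proteins that bind and build these RNAs, 102 genes were listed and tested. With edgeR, 1 rose and 1 fell at an FDR under 0.05, against 7.56% of all genes, and none with a fold change over 2. An unadjusted p under 0.05 was found for 10 of 102, against 22.1% of all genes, with a median log2 fold change of 0.0081. The 4 proteins of the C/D core (Fbl, Nop56, Nop58 and Snu13) had values from -0.14 to 0.12, and the 4 of the H/ACA core from -0.20 to 0.13. None of the 8 had an unadjusted p under 0.05, and none passed with DESeq2 or limma-voom. Snrpe, a protein of the Sm ring around snRNAs, fell from 9.82, 8.64 and 10.8 CPM in the controls to 7.07, 6.96 and 6.54 CPM, a log2 fold change of -0.50 with an FDR of 0.0417. Ints3, a subunit of the Integrator complex that trims the ends of snRNAs, rose from 38.6, 44.1 and 36.4 CPM to 52.9, 53.2 and 49.8 CPM, by 0.39 on the log2 scale with an FDR of 0.0317. The calls on both were lost without control 1, without control 3 and without each iSM KO library.

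Of 22 listed host RNAs tested, 1 passed an FDR of 0.05 with edgeR, against 7.56% of all genes. It was Rian, at 22.5, 23.6 and 27.6 CPM in the controls and 16.5, 16.1 and 13.2 CPM in the iSM KO, a log2 fold change of -0.68 with an FDR of 0.00981. Its groups did not overlap. The 22 had a median log2 fold change of -0.259, in a range from -0.683 to 0.471, against -0.0144 over all genes. Of the 22, 4 had an unadjusted p under 0.05, against 22.1% of all genes, and 3 passed with DESeq2 and 1 with limma-voom. Snhg1, the host of Snord22, had a log2 fold change of -0.50 with an FDR of 0.0588, and Meg3 had one of -0.41 with an FDR of 0.0575. Of 7 other small RNAs tested, none passed with edgeR, DESeq2 or limma-voom and none had an unadjusted p under 0.05. Their median log2 fold change was -0.16, from -1.08 for Vaultrc5 (FDR 0.236), which was high in control 2 alone, to 0.03 for Rmrp, the RNA of RNase MRP.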

How the data were processed

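The authors aligned the paired-end reads of 6 aortic libraries to mm10 using Illumina DRAGEN, after bcl2fastq per the labels, and deposited 1 estimated count per gene and library, neither normalized nor rounded. How reads matching several genes were shared, and whether strand was used, is not given in the sources used here.

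Counts were rounded. A gene was tested if every library of either group had a count over 10. The main test was the quasi-likelihood test of edgeR 4.0.16 (R 4.3.3) with TMM scaling and no covariates, with Benjamini-Hochberg FDR over 16565 genes. Calls required an FDR under 0.05 and, where stated, a fold change over 2. SDs of log2 CPM used a prior count of 2. The test was checked on simulated counts. Members of 1 family had at least 95% identity over 80% of their length (blastn 2.17.0). DESeq2 1.42.0 and limma 3.58.1 gave alternatives. Positions, hosts and sequences came from GENCODE M21.

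Named members were, per class, the 3 highest, those called, the smallest p-values in each direction, the widest spreads, those beside the count limit and the detected entries of lists of known RNAs and proteins. The members and lists were chosen with earlier results of these data known. Same-numbered libraries did not deviate together (correlations of -0.132, -0.0455 and -0.107), so samples were not paired. Pairs of libraries differed by more than sampling noise.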

Additional observations from a re-analysis of the deposited data

How the results depend on the processing

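The direction of the members' median log2 fold change was kept under every alternative run, at -0.965 to -0.437 when 1 library was left out. The number of members called lower with a fold change over 2, 3 with edgeR, was 7 with DESeq2, 11 with no filter on low counts and 0 in a test against a fold change of 2, in which 4 had an unadjusted p under 0.05. The number at an FDR under 0.05 at any fold, 4 with edgeR, was 10, 17 and 0 in these. Leaving out 1 library gave 0 to 11 calls and 0 to 22 at any fold, with the highest numbers without control 1 and the 0 without iSM KO 2, where 16 members had an unadjusted p under 0.05. With the replicate block, 3 were called with a fold change over 2 and 3 at any fold, and the numbers do not pair the samples. Over all 16565 genes, that fit called 353 with a fold change over 2 in either direction. Calls in the protein lists, 2 with edgeR, were 0 with the replicate block and 0 to 4 without 1 library. The causes were not tested. Gm24336 changed sign without control 1 (-0.0557) and without iSM KO 1 (-0.0773), in a range up to 0.213 when 1 library was left out. Gm25360 changed sign with limma-voom (0.133) and with the replicate block (0.0869), and ran from -0.525 to 0.529 when 1 library was left out, above 0 without control 2 and without iSM KO 3 (0.0507). The ratio of the iSM KO share to the control share was 0.594 to 0.748 for snoRNAs, 0.704 to 0.871 for scaRNAs, 0.422 to 0.788 for snRNAs and 0.576 to 0.749 for all 3 biotypes when 1 library was left out.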
